A study of Mus musculus with 4 samples.

Results

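The Wnt antagonists and targets described here were 10 mouse genes taken by symbol from the 55357 genes of the deposited count tables: Sfrp1, Sfrp2, Sfrp4, Frzb, Wif1, Dkk2, Dkk3, Sost, Ccn4 and Axin2. Each symbol was found once. The ascending aortas of male WT mice were profiled cell by cell with droplet libraries, in which each captured RNA molecule is counted by its unique molecular identifier (UMI). AD_ABR mice (2 libraries) were given BAPN (β-aminopropionitrile), which blocks lysyl oxidase and so weakens the cross-linked matrix of the wall, at 1 g/kg per day in drinking water for 4 weeks from 3 weeks of age, and also paquinimod, an inhibitor that binds the S100A9 protein, at 10 mg/kg per day by gavage. AD mice (2 libraries) were given the same BAPN course alone, which serves as a model of aortic dissection. Both groups therefore received BAPN, and an aorta without BAPN was not analysed here. The labels number the 2 libraries of each group without saying whether they came from separate animals, so the p-values measure the spread between these libraries.

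Wnt proteins are secreted signals that bind Frizzled receptors, alone or with the co-receptors LRP5 and LRP6. In the canonical branch they spare β-catenin from destruction, and β-catenin with TCF and LEF factors then turns on target genes. Secreted antagonists act at different points: the secreted Frizzled-related proteins (Sfrp1, Sfrp2, Sfrp4 and Frzb, also called Sfrp3) and Wif1 bind Wnt proteins themselves, whereas Dkk2 and sclerostin, the product of Sost, bind LRP5 and LRP6. Dkk3 belongs to the Dickkopf family by sequence but is not a classical LRP inhibitor. Axin2, a scaffold of the β-catenin destruction complex, and Ccn4, a matricellular protein first named WISP1, are known target genes of the pathway.

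The 4 libraries held 8451 to 9872 kept cells each. AD_ABR cells had a median of 9452 and 8208 UMIs, against 5268 and 7185 in AD. Clustering without the 10 genes and without the other Wnt genes considered below gave 28 clusters, of which 22 classes or unnamed clusters were made from marker lists; a class name ends in -like and rests on markers alone. AD replicate 1 stood apart in its makeup: neutrophil-like cells were 0.260% and 0.132% of AD_ABR cells, against 17.9% and 2.38% of AD cells. Summed counts differed more between the AD replicates (chi-square per degree of freedom 148) than between the AD_ABR replicates (67.4), and by 204 to 481 between groups. Any pair of libraries shared 22 to 38 cell barcodes. Smooth muscle-like cells had all 7 of their markers raised.

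Tests compared AD_ABR with AD on UMIs summed per library in the 11 classes or clusters with at least 50 cells in every library, with edgeR and an adjusted p below 0.05 over all genes tested in that class. Levels are UMI CPM, a gene's UMIs as a share of all UMIs of the summed cells on the usual CPM scale. Over all classes, 11 of 84 tests of a Wnt antagonist or target passed, 3 up and 8 down, beside 4.68% of all tests of genes. Leaving out AD replicate 1 gave 20 calls and leaving out AD replicate 2 gave 33. DESeq2 also gave 11 calls, of which 3 were among the edgeR calls: Frzb and Sost in endothelial-like cells and Sfrp1 in smooth muscle-like cells.

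**Figure D1:**
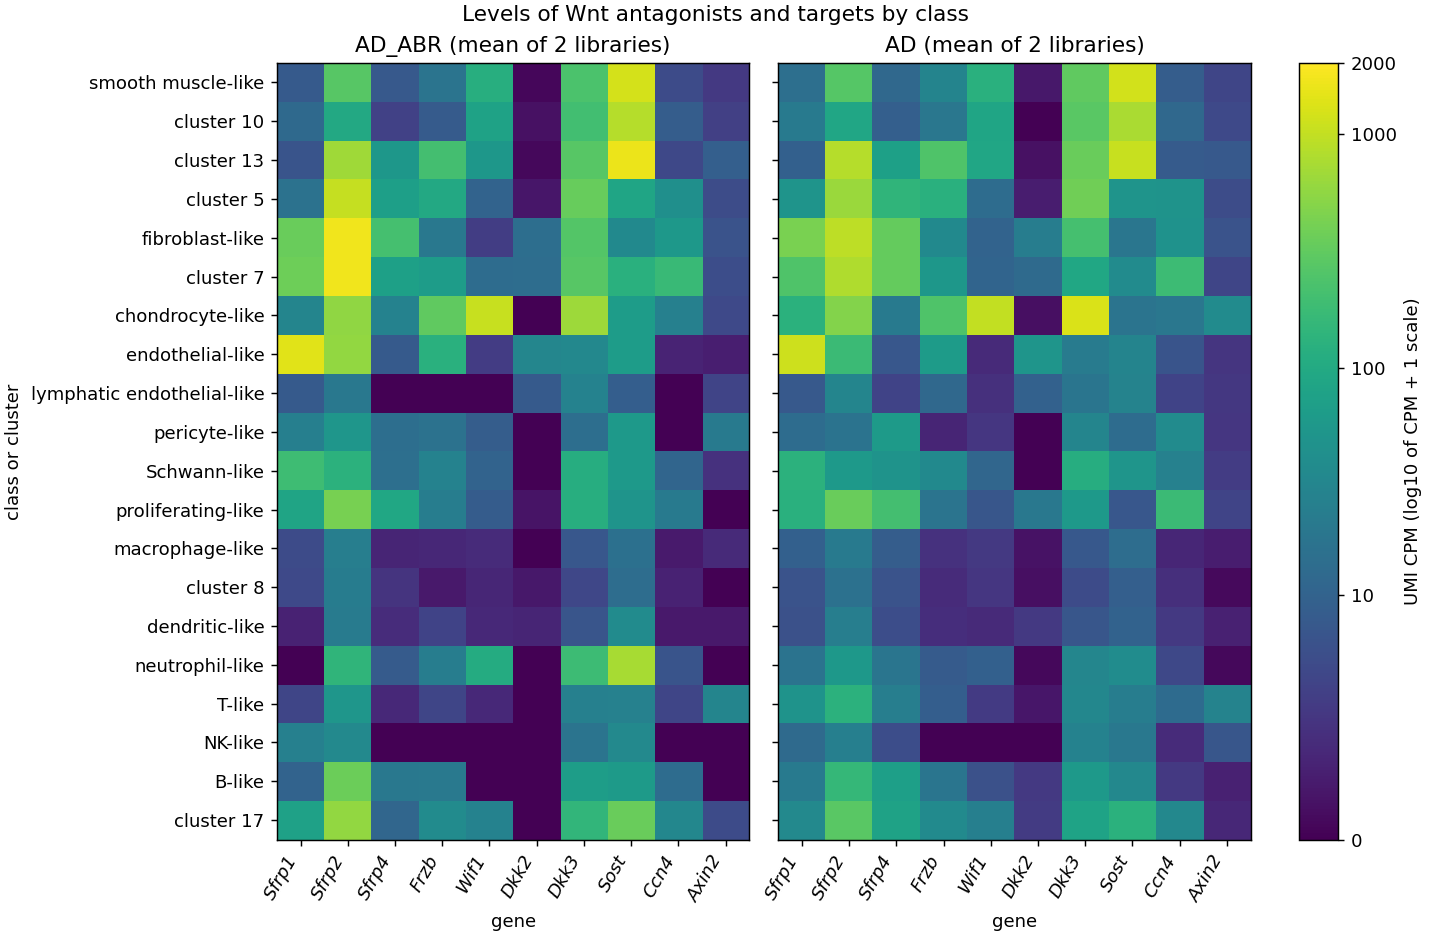
Mean UMI CPM of each gene (columns) in the 20 classes or clusters with at least 5 cells in every library (rows), for AD_ABR on the left and AD on the right, on a log colour scale. Sost was high in smooth muscle-like cells and clusters 10 and 13, Sfrp1 in endothelial-like cells, Wif1 in chondrocyte-like cells and Sfrp2 in fibroblast-like cells and cluster 7, in both groups.

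Among the secreted Frizzled-related genes, Sfrp1 (ENSMUSG00000031548, GRCm38 chr8:23411502-23449632) had its highest class level in endothelial-like cells. They held 1423 and 1460.3 CPM in AD_ABR, against 969.8 and 1262 CPM in AD. All 4 values lay above the next class, fibroblast-like cells, at 271 to 463 CPM over the 4 libraries. Fibroblast-like cells and cluster 7 (178 to 534 CPM) overlapped. Fibroblast-like cells, being more numerous, still supplied 62.5% and 67.3% of the Sfrp1 UMIs in AD_ABR, against 37.8% and 40.7% in AD. Endothelial-like cells supplied 25.0% and 27.6% in AD_ABR, against 26.2% and 21.2% in AD. Cluster 7 is an unnamed cluster led by Cxcl5, Col8a1 and Timp1.

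Sfrp2 (ENSMUSG00000027996, chr3:83766321-83774316) gave the most UMIs of the 10 genes, 223315 over all kept cells. Fibroblast-like cells held 1774 and 1629 CPM in AD_ABR, against 686 and 1180.0 CPM in AD. Cluster 7 held 1333 and 2039.6 CPM in AD_ABR, against 564 and 1061 CPM in AD. In both places each AD_ABR library was above both AD libraries, and neither difference passed the test (adjusted p = 0.0847 and 0.224). The ranges of the leading classes for Sfrp2, down to chondrocyte-like cells, overlapped from each to the next.

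Sfrp4 (ENSMUSG00000021319, chr13:19623104-19632994) was highest on average in fibroblast-like cells, at 152 and 273 CPM in AD_ABR, against 331 and 323 CPM in AD. In cluster 7 it had 53.2 and 95.2 CPM in AD_ABR, against 142 and 526 CPM in AD. The AD replicates of cluster 7 differed widely from each other, and both lay above the AD_ABR values (log2 fold change −2.17 ± 0.73 SE, adjusted p = 0.249).

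Frzb (ENSMUSG00000027004, chr2:80411970-80447625) marked other cells. Chondrocyte-like cells, which express cartilage genes such as Col2a1, held 199 and 421 CPM in AD_ABR, against 297 and 196 CPM in AD. Cluster 13, led by Rgs5, Grem1 and Msx2, held 194 and 219 CPM in AD_ABR, against 269.6 and 222 CPM in AD. These places overlapped each other, and cluster 13 lay above the next, cluster 5, at 84.9 to 152 CPM.

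Wif1 (ENSMUSG00000020218, chr10:121033960-121100650) had the sharpest step between classes. Chondrocyte-like cells held 1032 and 1079 CPM in AD_ABR, against 1051 and 955 CPM in AD. Smooth muscle-like cells came next with 117 and 118 CPM in AD_ABR, against 104 and 143 CPM in AD. The ranges did not overlap at the step from chondrocyte-like to smooth muscle-like cells, nor at the next step to cluster 10, whereas the groups overlapped within each of these classes. Chondrocyte-like cells numbered 28 and 7 in AD_ABR, against 276 and 186 in AD, too few for a test. They held 4.68% and 2.25% of the Wif1 UMIs of the AD_ABR libraries, against 63.7% and 33.7% in AD. Smooth muscle-like cells held 78.2% and 80.6% of them in AD_ABR, against 17.1% and 47.6% in AD. Over all kept cells Wif1 stood at 59.9 and 42.2 CPM in AD_ABR, against 54.6 and 46.2 CPM in AD, so similar totals had different cellular sources.

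Of the Dickkopf genes, Dkk2 (ENSMUSG00000028031, chr3:132085292-132180304) was low everywhere and highest in endothelial-like cells, at 35.8 and 27.2 CPM in AD_ABR, against 58.3 and 45.8 CPM in AD. Fibroblast-like cells followed at 12.5 to 34.0 CPM, nearly all from cluster 2, which held 40.7 and 39.5 CPM in AD_ABR, against 23.9 and 50.9 CPM in AD. Cluster 1 held at most 1.47 CPM. Dkk3 (ENSMUSG00000030772, chr7:112116017-112159057) was spread over the mesenchymal classes. It was highest in chondrocyte-like cells, at 1002 and 303 CPM in AD_ABR, against 1431 and 1199.99 CPM in AD. Cluster 5, cluster 13, smooth muscle-like cells and cluster 10 lay between 194 and 451 CPM, and each overlapped the next.

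Sost (ENSMUSG00000001494, chr11:101962458-101967015), best known from bone osteocytes, was highest on average in cluster 13, smooth muscle-like cells and cluster 10. Smooth muscle-like cells held 1274 and 1184 CPM in AD_ABR, against 1197 and 1169 CPM in AD. Cluster 13, which no marker list named, held 1590.2 and 1582 CPM in AD_ABR, against 1019.6 and 1121 CPM in AD. Cluster 10, which expresses all 7 smooth muscle markers but is led by Tnnt2, Des and Corin, held 851 and 843 CPM in AD_ABR, against 900.2 and 643 CPM in AD. Smooth muscle-like cells and cluster 13 overlapped, and all 4 smooth muscle-like values lay above cluster 10. Together these 3 places supplied most Sost UMIs in each library, with smooth muscle-like cells alone at 77.7% and 75.5% in AD_ABR, against 67.5% and 75.4% in AD.

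The target gene Ccn4 (ENSMUSG00000005124, chr15:66891320-66923201) was highest on average in cluster 7, at 212 and 128 CPM in AD_ABR, against 178 and 185 CPM in AD. Its range there overlapped that of proliferating-like cells, at 10.7 to 197 CPM over the 4 libraries. Axin2 (ENSMUSG00000000142, chr11:108920349-108950783) was the least abundant, with 1439 UMIs over all kept cells. T-like cells held 35.8 and 25.4 CPM of it in AD_ABR, against 36.8 and 21.6 CPM in AD, from 7 to 32 UMIs a library. Chondrocyte-like cells held 8.64 and 0 CPM in AD_ABR (2 and 0 UMIs), against 40.6 and 36.5 CPM in AD (89 and 52 UMIs). Among the 23 marker lists the T-cell list named the T-like cluster with all 6 of its markers.

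Endothelial-like cells line the vessel, and Frzb, Sost, Dkk2 and Ccn4 were called in them. Frzb had 127 and 122 CPM in AD_ABR, against 55.3 and 71.1 CPM in AD. Both AD_ABR libraries were above both AD libraries (log2 fold change 0.94 ± 0.17 SE, adjusted p = 0.00591). Dkk2 went the other way: the AD_ABR libraries given above were both below the AD libraries (−0.75 ± 0.21, adjusted p = 0.0465). Dkk2 in these cells was far above background, at 0.402 and 0.245 UMIs per cell in AD_ABR, against 0.483 and 0.325 in AD, whereas lymphocytes (B-, T- and NK-like cells pooled) held at most 0.00438. Lymphocytes had a median of 4044 and 2910.5 UMIs per cell in AD_ABR, against 1934 and 2374 in AD, and endothelial-like cells 8670 and 6976.5 in AD_ABR, against 6893 and 5683 in AD. In all, 4 of the 8 genes that passed the low-count filter were called, beside 8.08% of the 11023 genes tested, with 2 up (2.49% of all genes rose) and 2 down (5.59% fell). Wif1 and Axin2 did not pass the filter.

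Sost in endothelial-like cells was low, at 74.7 and 57.1 CPM in AD_ABR, against 31.6 and 27.9 CPM in AD. The groups did not overlap (log2 fold change 1.12 ± 0.20 SE, adjusted p = 0.00461). Smooth muscle markers moved with it in these cells: 6 of 7 were higher in both AD_ABR libraries, their summed level was 2118 and 2145 CPM in AD_ABR, against 814 and 1125 CPM in AD, and none was at 0. Sost UMIs per UMI of Myh11, the smooth muscle myosin heavy chain, were 0.668 and 0.684 in AD_ABR endothelial-like cells, against 1.6 and 0.651 in AD. In smooth muscle-like cells the same ratio was 0.358 and 0.371 in AD_ABR, against 0.277 and 0.270 in AD. The exact 95% intervals of the endothelial ratios (lowest bound 0.506) lay above those of the smooth muscle-like ratios in every library. So did the ratio in fibroblast-like cells, at 0.992 and 1.09 in AD_ABR, against 1.18 and 0.700 in AD. The part of smooth muscle RNA in the Sost difference was not tested beyond these ratios. Lymphocytes averaged 0.174 and 0.122 Sost UMIs per cell in AD_ABR, against 0.046 and 0.107 in AD. Endothelial-like cells averaged 0.839 and 0.514 in AD_ABR, against 0.262 and 0.198 in AD. The log2 fold change of Sost was positive in all 11 tested classes or clusters, from 0.12 in smooth muscle-like to 1.92 in dendritic-like cells. Besides endothelial-like cells, edgeR called it in cluster 17.

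Ccn4 in endothelial-like cells rested on few molecules, 1 and 5 UMIs in AD_ABR, against 17 and 23 UMIs in AD. It fell (log2 fold change −2.42 ± 0.62 SE, adjusted p = 0.031), and the summed counts alone gave a ratio of AD_ABR to AD of 0.184 (exact 95% interval 0.0639 to 0.438, counting error only). Per cell, Ccn4 averaged 0.00402 and 0.0177 UMIs in AD_ABR endothelial-like cells, against 0.0523 and 0.0422 in AD. Lymphocytes averaged 0.0290 and 0.0192 UMIs in AD_ABR, against 0.00876 and 0.0371 in AD, so by this reference the AD_ABR level is read as background. AD replicate 2 lay close to the lymphocyte level per cell and under it by CPM (5.95 CPM in endothelial-like cells beside 12.5 CPM in lymphocytes). By this reference only AD replicate 1 lay clearly above background. Macrophage-like cells averaged fewer Ccn4 UMIs in AD replicate 2: they held 0.00664 and 0.00292 per cell in AD_ABR, against 0.0126 and 0 in AD. Proliferation markers moved with Ccn4 and Dkk2 in endothelial-like cells: all 6 were lower in both AD_ABR libraries, none was at 0, and they summed to 107 and 103 CPM in AD_ABR, against 289.7 and 225 CPM in AD. Their part was not tested. Sfrp1, the gene these cells express most, did not pass (0.34 ± 0.16, adjusted p = 0.224), although both AD_ABR libraries were above both AD libraries. Sfrp2 had 564 and 592 CPM in AD_ABR, against 24.9 and 325 CPM in AD, and the AD replicates lay far apart (1.68 ± 1.53, adjusted p = 0.621).

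Frzb and Sost held their calls in endothelial-like cells when any 1 library was left out. Dkk2 lost its call without AD replicate 1 (−0.57, adjusted p = 0.0627) or AD_ABR replicate 2 (−0.56, 0.435), and Ccn4 without AD_ABR replicate 1 (−1.63, 0.302); without AD_ABR replicate 2, Ccn4 was at −3.98 (0.0314). With doublets kept, the calls of Frzb (0.67, adjusted p = 0.0617), Dkk2 (−0.75, 0.147) and Ccn4 (−0.97, 0.159) were lost. DESeq2 did not call Dkk2 (adjusted p = 0.186) or Ccn4 (0.167).

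**Figure D2:**
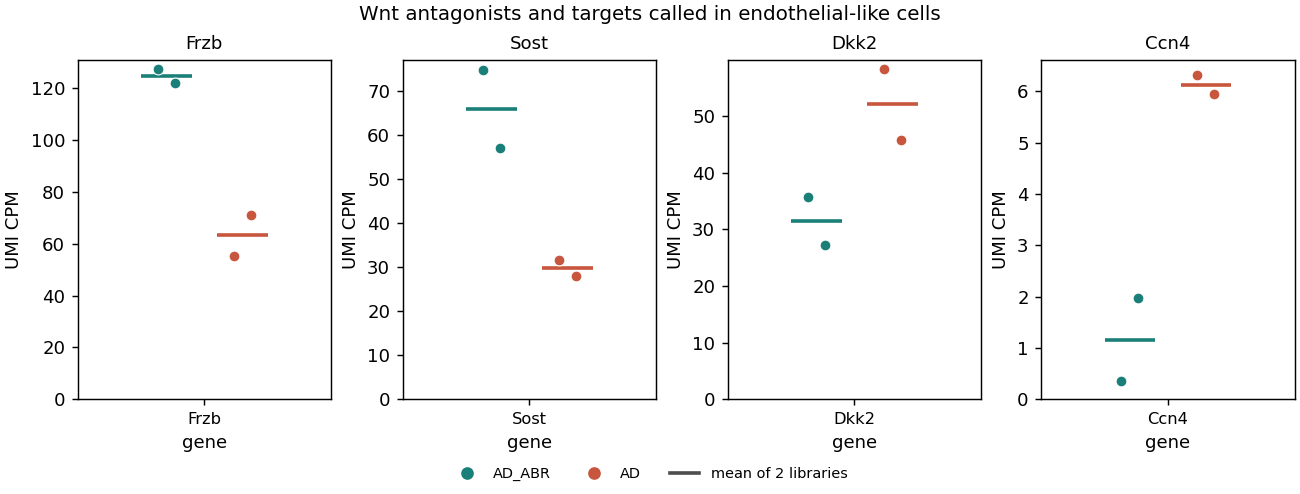
UMI CPM in endothelial-like cells of the 4 genes called there, each point 1 library and each line the mean of 2, with AD_ABR left of AD. Frzb and Sost were higher in AD_ABR, and Dkk2 and Ccn4 were lower there, with no overlap between the groups.

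Because Frzb and Dkk2 moved in opposite directions in the same cells, their promoter windows are shown side by side. RefSeq windows from 250 bases before to 50 bases after the annotated start (GRCm38.p6) were at hand for 6 of the 10 genes: Axin2, Dkk2, Frzb, Sfrp2, Sost and Wif1. The Frzb window is chr2:80447347-80447646 on the minus strand and the Dkk2 window chr3:132085042-132085341 on the plus strand. Capitals mark CTTTG or its reverse complement CAAAG, core letters of the sites that TCF and LEF factors bind, searched on both strands.
Frzb: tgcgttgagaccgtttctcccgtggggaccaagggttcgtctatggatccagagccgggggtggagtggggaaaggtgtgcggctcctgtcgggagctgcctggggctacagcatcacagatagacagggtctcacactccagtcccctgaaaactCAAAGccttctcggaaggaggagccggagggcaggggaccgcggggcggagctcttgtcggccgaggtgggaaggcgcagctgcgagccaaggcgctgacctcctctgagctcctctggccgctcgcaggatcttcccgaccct
Dkk2: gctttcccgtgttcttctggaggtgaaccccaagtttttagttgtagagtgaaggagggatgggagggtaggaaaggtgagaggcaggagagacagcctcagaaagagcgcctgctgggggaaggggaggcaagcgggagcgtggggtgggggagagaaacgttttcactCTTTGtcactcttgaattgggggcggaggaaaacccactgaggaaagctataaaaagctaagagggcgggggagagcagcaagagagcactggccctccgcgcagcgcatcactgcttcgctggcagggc

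Each window holds 1 match, which starts 94 bases before the RefSeq start in Frzb and 80 bases before it in Dkk2. The sources differ for Frzb: the gene span given above begins at 80447625 on the minus strand, so this match lies inside that span. The Dkk2 match lies outside the Dkk2 span given above. Of the 6 windows at hand, 3 hold a match (Dkk2, Frzb and Wif1), and so do 53.9% of all 32851 windows in the table. The matches are a description of these letters.

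In smooth muscle-like cells, which form the media and contract, the abundant antagonists showed little difference. Sost did not pass the test (log2 fold change 0.12 ± 0.12 SE, adjusted p = 0.521), nor did Wif1 (−0.03 ± 0.14, 0.92). Dkk3 had 226 and 244 CPM in AD_ABR, against 310 and 312 CPM in AD. Both AD_ABR libraries were lower, and the difference just missed the threshold over the whole class (−0.34 ± 0.11, adjusted p = 0.0564). Within cluster 0, the larger of the 2 smooth muscle-like clusters in 3 of the 4 libraries, Dkk3 fell to 222 and 236 CPM in AD_ABR, against 304 and 314 CPM in AD (−0.39 ± 0.10, adjusted p = 0.0228).

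The called genes of the whole smooth muscle-like class were low ones. Sfrp1 had 9.01 and 6.16 CPM in AD_ABR, against 17.03 and 12.7 CPM in AD (−0.85 ± 0.19, adjusted p = 0.011). Sfrp4 had 6.38 and 8.11 CPM in AD_ABR, against 11.8 and 12.4 CPM in AD (−0.70 ± 0.17, adjusted p = 0.0167). Both fell without overlap of the groups, and these 2 of 10 stand beside 13.5% of all 14540 genes called in either direction. Per cell, Sfrp1 averaged 0.0996 and 0.0599 UMIs in AD_ABR, against 0.142 and 0.0959 UMIs in AD. In lymphocytes it averaged 0.0435 and 0.0192 UMIs in AD_ABR, against 0.0329 and 0.169 UMIs in AD. Sfrp4 averaged 0.0705 and 0.0790 UMIs per smooth muscle-like cell in AD_ABR, against 0.0983 and 0.0936 in AD, and 0 and 0.0449 UMIs per lymphocyte in AD_ABR, against 0.0142 and 0.232 in AD. In AD replicate 2 both genes were therefore at or under the level of cells not known to make them, and are read as background in that library. The same holds in AD replicate 2 for Sfrp1 in cluster 0 (0.108 UMIs per cell) and Sfrp4 in cluster 3 (0.118).

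Within cluster 3, the smooth muscle-like cluster led by Igfbp2, Sfrp4 fell to 6.11 and 7.89 CPM in AD_ABR, against 23.4 and 19.9 CPM in AD (−1.54 ± 0.23, adjusted p = 0.000635). Ccn4 there had 6.20 and 5.26 CPM in AD_ABR, against 17.4 and 9.49 CPM in AD (−1.03 ± 0.29, adjusted p = 0.0437). The 2 calls of 9 tested stand beside 5.37% of all genes in cluster 3, and the 2 of 9 in cluster 0 (Dkk3 and Sfrp1) beside 12.2%. Sfrp1 in cluster 0 was −0.87 ± 0.20 (adjusted p = 0.00876). Neutrophil markers, of which Ly6g was at 0, summed to 0.761 and 0.520 CPM in AD_ABR smooth muscle-like cells, against 47.9 and 3.57 CPM in AD, and 4 of 6 were lower in both AD_ABR libraries; their part was not tested.

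Over the class, Sfrp1 lost its call without AD_ABR replicate 2 (−0.62, adjusted p = 0.0598), and Sfrp4 without AD_ABR replicate 1 (−0.50, 0.148), with the Wnt genes in the clustering (−0.51, 0.0654), with doublets kept (−0.51, 0.0964) or by DESeq2 (0.0738). Within clusters, Sfrp1 in cluster 0 and Sfrp4 in cluster 3 kept their calls without any 1 library, whereas Dkk3 in cluster 0 lost it without AD_ABR replicate 1 (−0.33, adjusted p = 0.274) or 2 (−0.43, 0.134), and Ccn4 in cluster 3 without AD replicate 1 (−0.71, 0.195), AD_ABR replicate 1 (−1.18, 0.0736) or AD_ABR replicate 2 (−0.95, 0.273).

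Cluster 10, the other contractile cluster, gave 3 calls of 9 tested, beside 9.38% of 10576 genes. Frzb had 8.72 and 6.91 CPM in AD_ABR, against 23.1 and 16.2 CPM in AD (−1.23 ± 0.27, adjusted p = 0.00482). Per cell it averaged 0.0950 and 0.0706 UMIs in AD_ABR, against 0.195 and 0.130 UMIs in AD, above the lymphocyte value of the same library in all 4 (0.0192 to 0.0435). Dkk3 had 194 and 206 CPM in AD_ABR, against 311 and 256 CPM in AD (−0.44 ± 0.14, adjusted p = 0.041). Sfrp4 had 3.09 and 3.59 CPM in AD_ABR, from 17 and 13 UMIs, against 12.1 and 6.08 CPM in AD, from 23 and 15 UMIs (−1.35 ± 0.40, adjusted p = 0.0369). Per cell, Sfrp4 averaged 0.0337 and 0.0367 UMIs in AD_ABR, against 0.102 and 0.0489 UMIs in AD. These values were under the lymphocyte value given above in replicate 2 of both groups. Macrophage-like cells averaged 0.00877 Sfrp4 UMIs in AD_ABR replicate 2 and 0.0695 in AD replicate 2. By both references Sfrp4 in cluster 10 is read as background in AD replicate 2, and in AD_ABR replicate 2 by lymphocytes only. All 3 fell without overlap of the groups, while Sost (0.20 ± 0.15, adjusted p = 0.446) and Wif1 (−0.08 ± 0.15, 0.774) had overlapping groups. Of the fibroblast markers 5 of 8 were lower in both AD_ABR libraries of cluster 10, none was at 0, and they summed to 685 and 840 CPM in AD_ABR, against 839 and 1117 CPM in AD. Of the proliferation markers 5 of 6 were lower, with sums of 1.82 and 3.87 CPM in AD_ABR, against 10.5 and 7.70 CPM in AD. The part of either list in these calls was not tested.

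Frzb in cluster 10 kept its call without any 1 library and lost it with doublets kept (−0.51, adjusted p = 0.292) or by DESeq2 (0.062). Dkk3 lost its call without AD replicate 1 (−0.33, adjusted p = 0.115), AD_ABR replicate 1 (−0.40, 0.336) or AD_ABR replicate 2 (−0.47, 0.251), and Sfrp4 without the same libraries (−0.85, 0.376; −1.22, 0.164; −1.43, 0.087). With doublets kept, Dkk3 (−0.33, adjusted p = 0.163) and Sfrp4 (−0.71, 0.281) also lost their calls, and Dkk3 did so by DESeq2 (0.116) and without the low-count filter (−0.39, 0.0855).

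**Figure D3:**
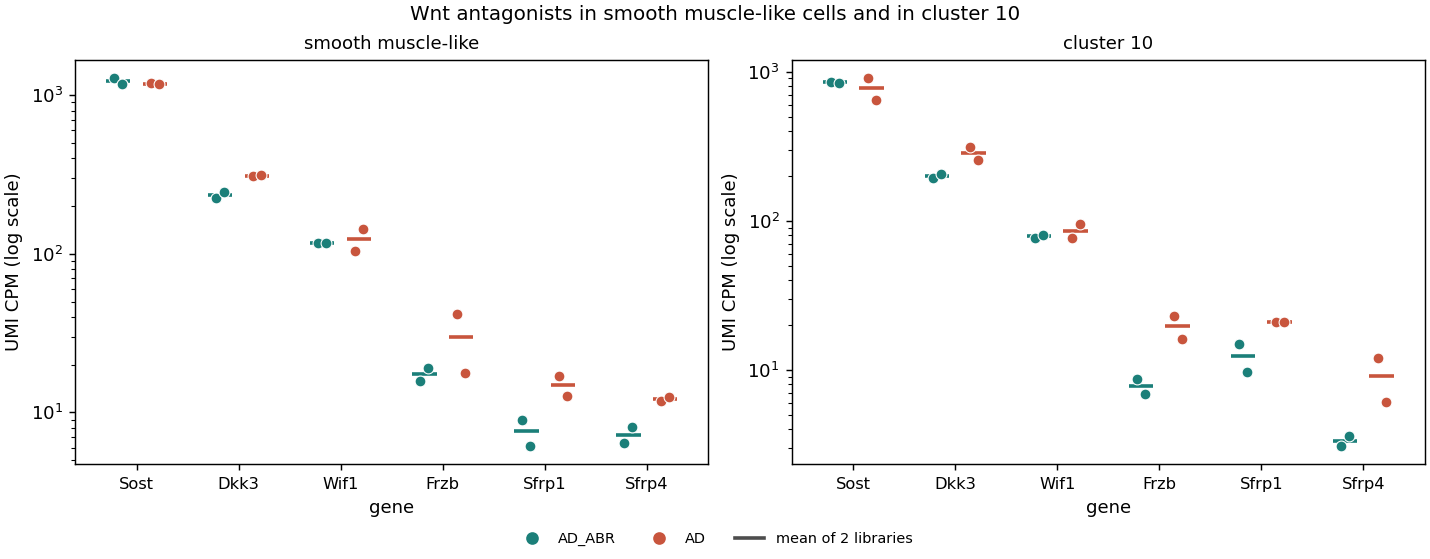
UMI CPM on a log scale of 6 genes in smooth muscle-like cells (left) and in cluster 10 (right), each point 1 library and each line the mean of 2, with AD_ABR left of AD. Sost and Wif1 overlapped between the groups in both panels, while Dkk3, Sfrp1 and Sfrp4 were lower in both AD_ABR libraries.

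Fibroblast-like cells, the matrix-producing cells of the adventitia, gave no call among 10 genes by edgeR, beside 5.57% of 15258 genes. At an unadjusted p under 0.05 there were 5, and DESeq2 called 3, Sfrp2, Sost and Wif1. Sfrp2 was closest among the abundant ones (0.94 ± 0.26, adjusted p = 0.0847). The class joins 3 clusters whose proportions differed: cluster 2 was 18.3% and 30.3% of its cells in AD_ABR, against 53.3% and 54.8% in AD, and cluster 4 was 33.8% and 32.6% in AD_ABR, against 11.8% and 14.9% in AD. Tests inside a cluster do not carry the difference in these proportions.

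Inside cluster 4, Sfrp2 rose to 1459 and 1851 CPM in AD_ABR, against 952 and 1050.3 CPM in AD (0.77 ± 0.19, adjusted p = 0.04). In the same cells Sfrp1 fell to 74.2 and 62.5 CPM in AD_ABR, against 121 and 129 CPM in AD (−0.84 ± 0.18, adjusted p = 0.0148). Members of one family thus moved in opposite directions within one cluster, and in each case the groups did not overlap. These 2 calls of 8 tested stand beside 1.04% of 10781 genes. Each call was lost without AD_ABR replicate 1 (Sfrp2 0.93, adjusted p = 0.407; Sfrp1 −0.96, 0.396) or AD_ABR replicate 2 (Sfrp2 0.58, 1.0; Sfrp1 −0.72, 1.0), with 1 AD_ABR library then assumed to vary like the AD libraries. DESeq2 called Sfrp2 and not Sfrp1 (adjusted p = 0.174).

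Cluster 1 had the highest Sfrp2 of the 3, at 2343 and 2428 CPM in AD_ABR, against 1025 and 1875 CPM in AD, which did not pass (0.74 ± 0.28, adjusted p = 0.205). Frzb in cluster 1 had 38.1 and 33.6 CPM in AD_ABR, against 89.0 and 51.4 CPM in AD (−0.91 ± 0.22, adjusted p = 0.0804). Cluster 2 held the most Sfrp1, at 1040.0 and 429 CPM in AD_ABR, against 505 and 596 CPM in AD, and the groups overlapped (0.42 ± 0.46, adjusted p = 0.74). By edgeR no gene was called in cluster 1 (9 tested, beside 1.50% of all genes) or in cluster 2 (10 tested, beside 0.280%); 4 and 3 had an unadjusted p under 0.05, and DESeq2 called Frzb and Sfrp4 in cluster 1 and Frzb in cluster 2.

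**Figure D4:**
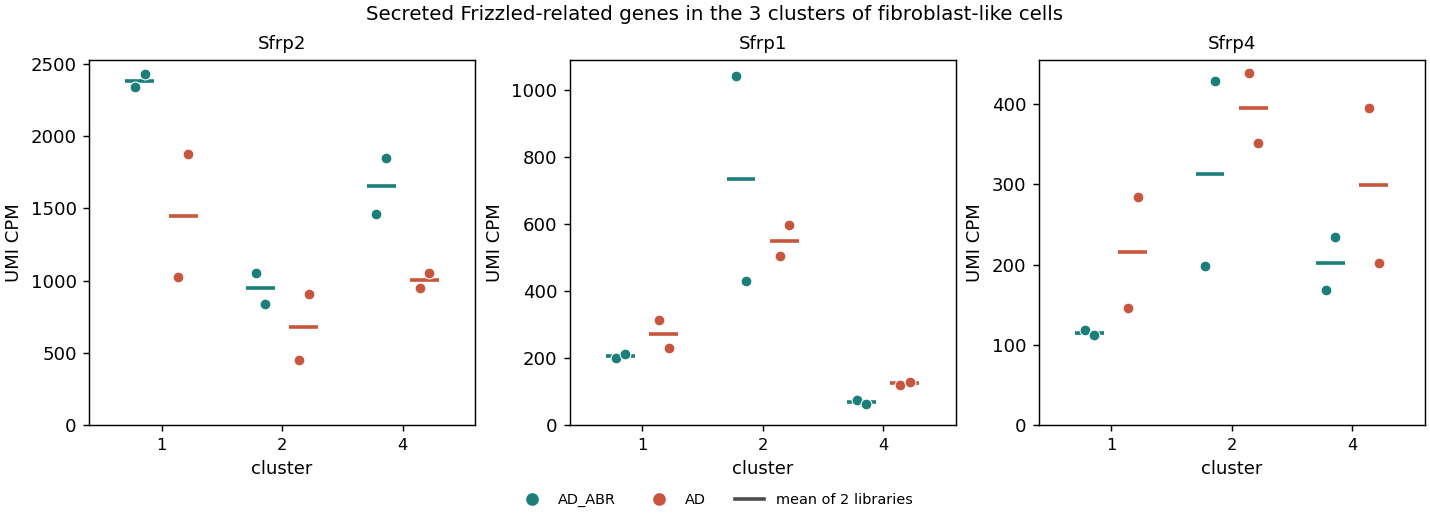
UMI CPM of Sfrp2, Sfrp1 and Sfrp4 in the 3 clusters of fibroblast-like cells, each point 1 library and each line the mean of 2, with AD_ABR left of AD. In cluster 4, Sfrp2 was higher and Sfrp1 lower in both AD_ABR libraries.

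The change of Dkk3 and of Ccn4 differed between smooth muscle-like and fibroblast-like cells of the same libraries. Dkk3 had a log2 fold change of −0.34 in smooth muscle-like cells and 0.40 in fibroblast-like cells, where it stood at 261 and 266 CPM in AD_ABR, against 234 and 186 CPM in AD. The difference of the changes was −0.72 ± 0.13 SE (edgeR interaction, adjusted p = 0.00531). Ccn4 had −0.66 in smooth muscle-like cells and 0.32 in fibroblast-like cells, where it stood at 61.4 and 50.7 CPM in AD_ABR, against 48.7 and 45.7 CPM in AD. Its difference was −0.94 ± 0.21 (adjusted p = 0.022). Ccn4 was low in smooth muscle-like cells, at 4.68 and 4.76 CPM in AD_ABR, against 10.5 and 6.10 CPM in AD. Per cell this was 0.0517 and 0.0463 UMIs in AD_ABR, against 0.0871 and 0.046 in AD. Lymphocytes averaged 0.0290 and 0.0192 UMIs in AD_ABR, against 0.00876 and 0.0371 in AD, so AD replicate 2 lay close to the lymphocyte level. Macrophage-like cells held 0 Ccn4 UMIs in AD replicate 2. Neither gene passed the test within either class alone, and these 2 of 10 stand beside 4.40% of 16396 genes. Sost came next (−0.83 ± 0.20, adjusted p = 0.0529). Without AD_ABR replicate 1 the Dkk3 difference was −0.67 (adjusted p = 0.0669) and that of Ccn4 −0.77 (0.223), and without AD replicate 1 that of Ccn4 was −0.66 (0.113). The changed proportions of the fibroblast-like clusters enter these differences; inside single clusters Dkk3 changed by −0.03 to 0.29 in the fibroblast-like clusters and by −0.39 and −0.33 in the smooth muscle-like ones. Ccn4 changed by −0.14 in cluster 1, 0.67 in cluster 2 and 0.05 in cluster 4, none of them called, and by −0.60 in cluster 0 and −1.03 in cluster 3.

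**Figure D5:**
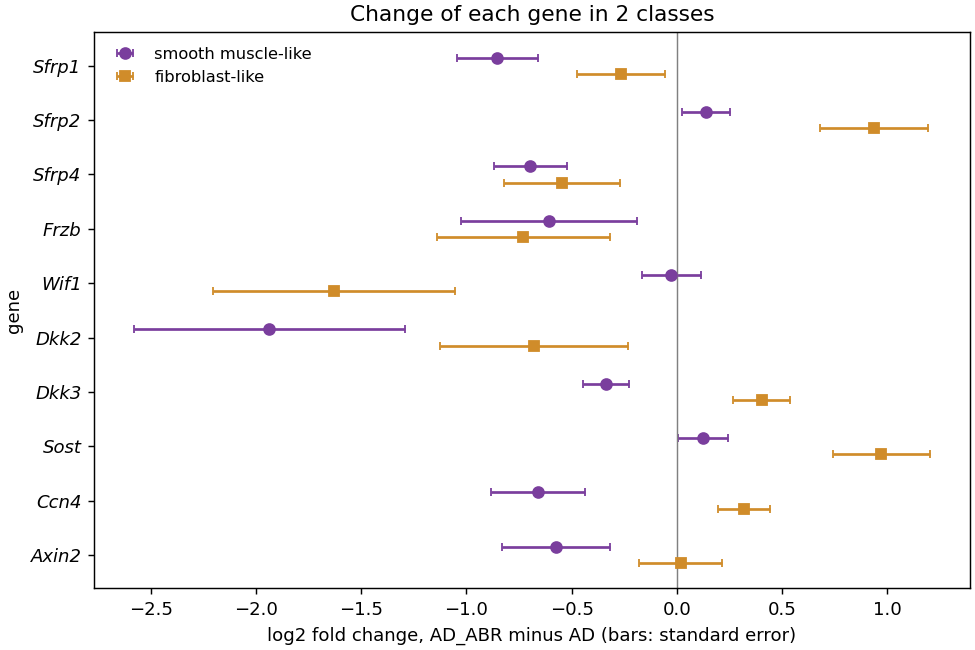
Log2 fold change (AD_ABR minus AD, horizontal axis) with its standard error for each gene in smooth muscle-like cells (circles) and fibroblast-like cells (squares). Dkk3 and Ccn4 lay below 0 in smooth muscle-like cells and above 0 in fibroblast-like cells, and their differences of −0.72 and −0.94 passed the test.

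Over all kept cells, Ccn4 had 29.1 and 27.2 CPM in AD_ABR, against 68.3 and 72.9 CPM in AD. By edgeR it was the only one of the 10 genes called there (−1.22 ± 0.12, adjusted p = 0.024), beside 3.38% of 20196 genes, whereas DESeq2 called Ccn4, Dkk3 and Sost. Dkk3 had 223 and 229 CPM in AD_ABR, against 172 and 168 CPM in AD (edgeR 0.51 ± 0.13, adjusted p = 0.0766). Inside cluster 7, where Ccn4 was highest on average, the level of Ccn4 did not pass the test (−0.02 ± 0.26, adjusted p = 0.977). Cluster 7 was 1.12% and 0.902% of AD_ABR cells, against 6.28% and 11.5% of AD cells, and held 18.5% and 6.68% of the Ccn4 UMIs in AD_ABR, against 47.7% and 61.3% in AD. Proliferating-like cells held 1.007% and 0.468% of the Ccn4 UMIs in AD_ABR, against 33.3% and 17.95% in AD. Fibroblast-like cells went the other way, with 58.2% and 71.8% in AD_ABR, against 9.8% and 14.5% in AD. The call of Ccn4 over all kept cells was lost without AD_ABR replicate 1 (−1.26) or AD_ABR replicate 2 (−1.17). Sost showed the reverse arrangement. It stood at 657 and 454 CPM over all kept cells in AD_ABR, against 159 and 238 CPM in AD (1.58 ± 0.30, adjusted p = 0.0555), with smooth muscle-like cells at 36.6% and 26.0% of AD_ABR cells, against 7.78% and 18.2% of AD cells.

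Cluster 17, cells with few UMIs (a median of 888 to 1329 per cell over the 4 libraries), gave 2 calls of 6 tested, beside 5.50% of 4307 genes. Sost had 458 and 252 CPM in AD_ABR, against 102 and 155 CPM in AD (1.35 ± 0.33, adjusted p = 0.016). Smooth muscle markers moved with it: 6 of 7 were higher in both AD_ABR libraries, they summed to 13130 and 16950 CPM in AD_ABR, against 6479 and 7596 CPM in AD, and none was at 0. Sost per Myh11 UMI there was 0.447 and 0.272 in AD_ABR, against 0.208 and 0.237 in AD, and its exact 95% intervals included the ratio of smooth muscle-like cells of the same library in all 4. Sfrp4 had 3 and 2 UMIs in AD_ABR, against 34 and 18 UMIs in AD, a ratio of 0.151 (exact 95% interval 0.0472 to 0.377, counting error only; −2.82 ± 0.63, adjusted p = 0.0082). Sost lost its call without AD_ABR replicate 1 (0.84, adjusted p = 0.365) and Sfrp4 without AD replicate 1 (−2.18, 0.41). Sfrp4 averaged 0.0316 and 0.0345 UMIs per cluster 17 cell in AD_ABR, against 0.276 and 0.0789 in AD, under the lymphocyte value in replicate 2 of both groups. DESeq2 did not call Sost (adjusted p = 0.097) and gave Sfrp4 no adjusted p.

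In the other tested places edgeR called none of the 10 genes: cluster 5 (9 tested, 4 at an unadjusted p under 0.05, DESeq2 3; beside 0.629% of all genes), cluster 7 (10, 4, 2; 0.263%), cluster 13 (9, 3, 0; 0.391%), cluster 8 (5, 1, 0; 4.90%), dendritic-like cells (3, 0, 0; 1.32%) and macrophage-like cells (5, 2, 0; 0.00933%). DESeq2 called Sfrp1, Sfrp4 and Sost in cluster 5, an unnamed cluster led by Aldh3a1 and Prss12. There Sfrp4 had 55.8 and 87.5 CPM in AD_ABR, against 162 and 125 CPM in AD (edgeR −0.998 ± 0.23, adjusted p = 0.122). In cluster 7 Dkk3 had 187 and 360 CPM in AD_ABR, against 90.8 and 91.0 CPM in AD (1.63 ± 0.29, adjusted p = 0.07).

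Axin2 was called nowhere. In smooth muscle-like cells it had 2.34 and 2.64 CPM in AD_ABR, against 3.71 and 3.95 CPM in AD (−0.58 ± 0.26, adjusted p = 0.143). In fibroblast-like cells it had 6.08 and 5.82 CPM in AD_ABR, against 5.16 and 6.93 CPM in AD (0.02 ± 0.20, adjusted p = 0.967).

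Other genes of the pathway were taken from 6 lists with 103 genes. In smooth muscle-like cells 11 of the 69 tested were called and all 11 fell. Of all genes tested there, 13.5% were called in either direction and 7.40% fell. Among other target genes 4 of 13 fell, with a list median of −0.50, and the 3 with the lowest p were Jag1, a Notch ligand, Myc, a growth transcription factor, and Bambi, a decoy receptor of the TGF-β family. Jag1 had 19.8 and 20.1 CPM in AD_ABR, against 47.4 and 36.0 CPM in AD (−0.97 ± 0.13, adjusted p = 0.000319). Myc had 26.2 and 22.2 CPM in AD_ABR, against 53.4 and 43.8 CPM in AD (−0.92 ± 0.13, adjusted p = 0.000382). Bambi had 87.0 and 88.4 CPM in AD_ABR, against 140.1 and 146 CPM in AD (−0.64 ± 0.11, adjusted p = 0.00181). Each of these genes answers to other pathways too.

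Of the Wnt ligands 2 of 8 fell in smooth muscle-like cells: Wnt5a, a ligand of the non-canonical branch, with 4.07 and 4.24 CPM in AD_ABR, against 11.5 and 8.04 CPM in AD (−1.12 ± 0.20, adjusted p = 0.0026), and Wnt16 (−0.47 ± 0.11, 0.0124). Of the receptors 2 of 14 fell, Ror1, a receptor of Wnt5a (−0.62 ± 0.12, adjusted p = 0.00345), and Fzd4 (−0.57 ± 0.16, 0.0302). The R-spondin receptor gene Lgr6, Dvl2 of signal transduction, Prickle1 among targets and Apcdd1, a membrane-bound inhibitor, also fell, each by 0.35 to 1.03 on the log2 scale. Proliferation markers moved the same way in this class: all 6 were lower in both AD_ABR libraries, and summed to 3.22 and 3.72 CPM in AD_ABR, against 14.5 and 11.5 CPM in AD; their part was not tested.

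Cluster 10 showed 8 of 64 list genes called, all lower, beside 9.38% of all genes called in either direction and 5.12% falling. They were Jag1 (−1.04 ± 0.18, adjusted p = 0.000931), Nkd2 (−1.39 ± 0.34, 0.0122), Bambi (−0.57 ± 0.15, 0.0177) and Myc among targets, Wnt5a (−1.49 ± 0.30, 0.00296), Fzd4 (−1.30 ± 0.30, 0.00817), the transcription factor Tcf7l2 (−0.53 ± 0.15, 0.0273) and Igfbp4 (−0.48 ± 0.14, 0.0363), which codes for a secreted binding protein of insulin-like growth factors. In endothelial-like cells 5 of 55 were called, beside 8.08% of all genes. Myc (−1.34 ± 0.18, adjusted p = 0.000681), the AP-1 gene Fosl1 (−2.31 ± 0.47, 0.0115), Igfbp4 (−0.98 ± 0.17, 0.00376) and the co-repressor Tle3 (−0.75 ± 0.21, 0.0442) fell, and the receptor Ror2 rose, from few counts (3.93 and 6.30 CPM in AD_ABR, against 0.743 and 1.29 CPM in AD; adjusted p = 0.0441). In fibroblast-like cells 2 of 77 were called, beside 5.57% of all genes, Myc (−0.71 ± 0.15, adjusted p = 0.0406) and Csnk1d (−0.46 ± 0.10, 0.042), both lower. Inside its cluster 4, Wnt5a, which these cells expressed at a far higher level than smooth muscle-like cells, fell to 139 and 135 CPM in AD_ABR, against 365 and 219 CPM in AD (−0.997 ± 0.20, adjusted p = 0.0108).

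Some list genes rose, and some changed in opposite directions in different places. Nkd2, a feedback inhibitor that fell in cluster 10, rose in fibroblast-like cluster 1 to 16.5 and 18.4 CPM in AD_ABR, against 5.20 and 8.29 CPM in AD (1.34 ± 0.23, adjusted p = 0.0317). Lgr6, which fell in smooth muscle-like cells, rose in cluster 5 to 44.1 and 35.3 CPM in AD_ABR, against 20.3 and 20.7 CPM in AD (0.95 ± 0.17, adjusted p = 0.046). The difference between these changes was not tested. Of 72 list genes tested in cluster 5, Fosl1 (−2.27 ± 0.27, adjusted p = 0.0103) and Cd44 (−0.76 ± 0.14, 0.046) fell, beside 0.629% of all genes called there. Of 43 tested in cluster 8, the co-repressor Tle1 rose (1.19 ± 0.24, adjusted p = 0.0112), and Jag1 (−1.47 ± 0.25, 0.00496), Fosl1 (−1.95 ± 0.40, 0.0149), Bambi (−1.15 ± 0.27, 0.026) and Igfbp4 (−1.41 ± 0.23, 0.00531) fell, beside 4.90% of all genes. The junction gene Cldn1 rose in dendritic-like cells (2.74 ± 0.48, adjusted p = 0.0331), 1 call of 36 tested beside 1.32% of all genes. Cd44 fell in cluster 17 (−1.29 ± 0.32, adjusted p = 0.0165), 1 call of 26 tested beside 5.50% of all genes.

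For the 4 genes with the most UMIs, the genes of the most similar pattern were sought among 15640 genes over 44 sums (11 classes or clusters in 4 libraries) by Pearson's r of log2(CPM + 5), a description in which sums of a library share its depth and sums of a class its cells. Sost went with Itga8 (r = 0.981), Mylk (0.980) and Myl9 (0.972), Sfrp2 with Nnmt (0.972), Gm26771 (0.967) and Mfap5 (0.964), Dkk3 with Col4a5 (0.982), Sspn (0.979) and Fzd2 (0.977), and Sfrp1 with Heg1 (0.945), Ly6c1 (0.927) and Fbln2 (0.908).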

How the data were processed

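Per the labels' protocols, libraries were made with 10x 3′ chemistry. The deposited values are raw UMI counts per gene and barcode, not normalized by the authors. The submitters' processing notes name STAR, Cell Ranger 6.0, Seurat 4.0 and GRCm38; the file headers name Cell Ranger 7.1.0. Barcodes with at least 200 genes and under 20% mitochondrial UMIs were kept, and the highest Scrublet scores removed (0.8% per 1000 barcodes). Kept libraries held 66197717 to 87522686 UMIs. Cells were clustered without integration (scanpy 1.11.5; 2000 variable genes without the 10 genes and Wnt lists; Leiden, resolution 1.0) and named where most of a list's markers were raised. UMIs were summed per library and class, 186423 to 34167418 UMIs for a tested sum, and tested with edgeR 4.0.16 (TMM, filterByExpr, quasi-likelihood; adjusted p below 0.05), checked on simulated data. SE is the log2 fold change over the square root of F. The genes, lists and tests were chosen with earlier results of these data known. From each other list, up to 3 called genes with the lowest p are named per class, and smaller sets whole after their values were seen. With 2 libraries against 2 an exact permutation test cannot go below 0.333, so none is given. Alternatives were DESeq2 1.42.0, its size factors, no low-count filter, a replicate block, each library left out and 4 other clusterings. Sources used here do not state strain or animals per library.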

Additional observations from a re-analysis of the deposited data

Results flagged for a closer look

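Dkk3 and Ccn4 are listed here because the test of the difference itself found that their change with paquinimod was not the same in 2 cell classes of the same libraries. For Dkk3, the change in smooth muscle-like cells minus the change in fibroblast-like cells was −0.72 on the log2 scale (edgeR, adjusted p = 0.00531). For Ccn4 it was −0.94 (adjusted p = 0.022). Ccn4 was low in smooth muscle-like cells, and in AD replicate 2 it lay close to the level of lymphocytes. Groups of 2 libraries are too small for a check for outlying samples.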

How the results depend on the processing

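The 20 results on single genes kept their sign under each alternative that gave a value (197 in all), and 51 of these fell short of the threshold. Sost in endothelial-like cells passed under all 13 alternatives run for it, which included 4 other clusterings. Smooth muscle markers moved with Sost in those cells, and no alternative tested the part of smooth muscle RNA. Sfrp1 in cluster 0 and Sfrp4 in cluster 3 passed under the 9 run for each, which included no other clustering. Per cell, both lay under the lymphocyte level and above the macrophage-like level in AD replicate 2. The 11 calls over all classes became 27 without a low-count filter, 29 with the replicate block, 7 with stricter cell filters and 11 to 33 with 1 library left out. The 1 call over all kept cells became 3 with DESeq2, 2 without the filter, 0 with the block and 0 to 4 with a library left out. The 36 calls of other Wnt genes became 84, 72 and 27 to 110 without the filter, with the block and with a library left out, and the 6 within single clusters 13, 14 and 3 to 20. The 2 differences between classes became 0 to 6 with a library left out. The cause was not tested. The share of all genes called under each alternative is not given beside these counts. They are therefore not read as results about the Wnt genes. In the main setting the calls over all classes stand beside 4.68% of all tests of genes. Replicate numbers only name libraries: the differences between replicates 1 and 2 of the groups had r = −0.116 over genes. A crossed pairing, added after seeing the data, gave 17 calls over classes, 2 over all cells and 10 within clusters. Low-count genes limit the rest: Ccn4 in endothelial-like cells and Sfrp4 in cluster 17 rest on 1 to 5 UMIs per AD_ABR library.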

Other observations

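Proliferating-like cells, too few in AD_ABR for a test (34 and 61 cells, against 233 and 268 in AD), had 32.2 and 10.7 CPM of Ccn4 in AD_ABR, against 197 and 154 CPM in AD, and 0 and 0.975 CPM of Dkk2 in AD_ABR, against 14.96 and 25.1 CPM in AD. Neutrophil-like cells had 525 and 960 CPM of Sost in AD_ABR, from 42 and 60 UMIs in 22 and 13 cells, against 12.3 and 66.8 CPM in AD, from 32 and 25 UMIs in 1635 and 233 cells. Wif1 and Dkk3, which smooth muscle-like cells also express, reached 150 and 240 CPM in single libraries of neutrophil-like cells. The part of smooth muscle RNA in these Sost values was not tested. Pericyte-like cells held 0 and 0 UMIs of Ccn4 in AD_ABR (16 and 15 cells), against 11 and 8 UMIs in AD (26 and 54 cells).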
